A study of Mus musculus with 11 samples.

Results

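Actn2, Fabp3, Nppb, Atp2a2, Myl4, Lpl and Coq8a are 7 mouse genes of heart muscle and of fatty acid use, out of 7114 named genes measured here. They were selected on these data: every probe annotated with 1 of these symbols was taken, 11 probes in all, and the genes were chosen with their levels across the arrays known. Their differences below are therefore descriptions, and no test is applied to them.

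A heart muscle cell contracts through sarcomeres, in which myosin pulls on actin filaments anchored at the Z disc. Calcium released from the sarcoplasmic reticulum starts each contraction and is pumped back to end it. The adult heart draws most of its energy from fatty acids, which are freed from lipoproteins at the capillary wall, carried through the cell by a binding protein and oxidised in mitochondria, where coenzyme Q passes the electrons on. In these roles Actn2 encodes the alpha-actinin of the Z disc and Myl4 the light chain of myosin in the atrium and the embryonic heart. Atp2a2 encodes SERCA2, the calcium pump, and Nppb the natriuretic peptide BNP, a hormone made by stretched heart muscle. Lpl encodes lipoprotein lipase, Fabp3 the heart-type fatty acid binding protein, and Coq8a an atypical kinase needed for coenzyme Q synthesis.

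RNA of 11 mouse samples was labelled with Cy3 and hybridised against a common mouse embryo reference in Cy5, on 2-colour arrays with 1 array per label. The labels were 3T3 (an established fibroblast line), VA_MEF, VA_475, D6_MEL, NRAS_MEL, HRAS_MEL, Melan A (an established pigment cell line), and the organs Heart, Kidney, Liver and Lung. NRAS_MEL and HRAS_MEL carry the names of RAS genes, the subject of the series, which concerns melanocytes; what the suffix MEL and the prefix VA stand for, and any treatment, age, strain or further genotype, is not given in the labels. No label had a replicate array, so no error can be given between samples. The spread between probes of a gene, 0.69 as a root mean square SD of a log2 difference, is the measure of error used below. It leaves out the differences between cultures or animals. It was computed for the Melan A-labelled array minus the median of the other 10, over genes with several probes. Gaps between single arrays are also set beside it, though their own error is unknown.

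All levels are log2 ratios of own RNA over embryo reference, centred on the array median, and each is a level relative to whole embryo, which contains embryonic heart. The direction is likely, not stated. In the deposited sign the median of the sarcomere list departed most from its level over the arrays in the Melan A-labelled array, by -3.28, and that of the kidney markers in Kidney, by -5.52. Liver markers lay farthest in the array labelled Lung, by -8.36, and the lung marker Sftpd in the array labelled Liver, by -7.46. Since organ genes are high in 1 tissue, the sign was turned, which takes the table as reference over own RNA. The sample titles give the opposite order, and if they describe the table, every sign below turns. The liver and lung markers go against the labels Liver and Lung. For the labels Melan A and Heart the basis is the sarcomere list, with medians of 2.64 and -0.42. That list also holds genes of many cell types. These arrays are therefore named by label only, and no array was moved. The array labelled Heart correlated at 0.917 over genes with D6_MEL. Of 12 defining heart markers such as Myh6, Tnnt2 and Nppa, 0 were among the named genes analysed here.

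Promoters are shown first for 4 of the genes, because 3 of them were at least 2-fold above every other array in the Melan A-labelled array and Myl4 was not. Of the 7 genes, 5 had an entry in the RefSeq promoter table of GRCm38.p6, Coq8a with 2 starts; Atp2a2 and Lpl had none. Below are the 120 bases before the annotated start, 5′ to 3′ on the gene's strand, with capitals for any match to the motifs searched on both strands. The motif of GATA factors was written AGATAA and the E box of basic helix-loop-helix factors CANNTG. For the heart factor Nkx2-5 the letters were AAGTG, for estrogen-related receptors they were AAGGTCA, and for TEAD factors, whose motif is called MCAT, they were CATTCC. The MEF2 and CArG motifs were searched too.
Actn2, chr13:12340733-12340852, minus strand: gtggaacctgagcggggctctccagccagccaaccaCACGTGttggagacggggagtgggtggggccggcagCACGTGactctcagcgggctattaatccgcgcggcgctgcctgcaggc
Fabp3, chr4:130308618-130308737, plus strand: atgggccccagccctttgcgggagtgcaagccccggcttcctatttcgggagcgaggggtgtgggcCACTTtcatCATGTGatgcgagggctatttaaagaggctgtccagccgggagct
Nppb, chr4:147985780-147985899, plus strand: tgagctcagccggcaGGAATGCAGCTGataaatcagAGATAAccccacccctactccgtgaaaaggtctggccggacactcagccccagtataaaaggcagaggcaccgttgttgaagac
Myl4, chr11:104550543-104550662, plus strand: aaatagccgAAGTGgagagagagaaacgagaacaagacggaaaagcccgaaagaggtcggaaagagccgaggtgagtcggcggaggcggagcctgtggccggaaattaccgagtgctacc

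In the full windows of 250 bases before to 50 after the start, Nppb was the 1 gene of the 5 with AGATAA, which 11.2% of 32851 mouse promoters of that length held. Its match runs from -84 to -79 relative to the start. An MCAT match from -105 to -100 abuts an E box from -99 to -94 without overlap. MCAT matches were present in 14.7% of all promoters, and besides Nppb in the downstream of the Coq8a promoters. E boxes occurred in 4 of the 5 genes and in 72.3% of all promoters, and AAGTG in Coq8a, Fabp3 and Myl4 and in 46.4% of all. No match to AAGGTCA, MEF2 or CArG was found in the 6 windows; their shares among all promoters were 4.72%, 3.19% and 1.63%. These matches describe letters, and nothing about binding follows from them.

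Of the 7 genes, 6 were highest in the Melan A-labelled array, and the same 6 were at least 2-fold above the median of the other 10 arrays there. The exception was Myl4. Over all 7062 genes compared, 12.7% were at least 2-fold higher and 8.17% at least 2-fold lower in that array, but the genes were chosen on this contrast and nothing is read from their count. Their median difference was 4.86, against -0.01 over all genes. Quantile normalization lowered the folds given below: it gave 217-fold for Lpl, 59.6-fold for Actn2, 14.3-fold for Nppb and 6.62-fold for Atp2a2. Without it, but against the mean of the other 10 arrays, Lpl was at 239-fold. If the deposited logarithm was natural, every log2 difference would be larger in size, with a median of 7.01. At least 2-fold above every other array stood 5 of the 7, against 3.34% of all genes; Coq8a and Myl4 did not.

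**Figure D1:**
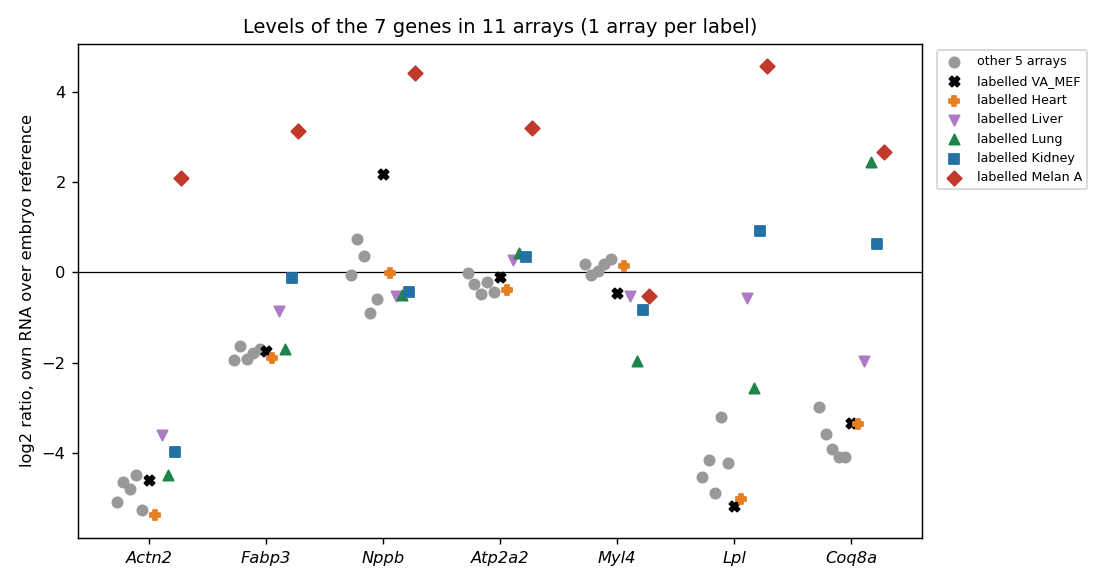
Log2 ratio of own RNA over embryo reference (vertical axis) for the 7 genes (horizontal axis), 1 point per array; diamonds are the Melan A-labelled array. The diamond lies above all other points for 6 genes and at -0.52, among the others, for Myl4.

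Among the contractile genes, Actn2 stood at 2.08 in the Melan A-labelled array. It lay at -3.59 in Liver, -3.97 in Kidney, -4.49 in Lung, -4.50 in VA_475, -4.59 in VA_MEF and -4.65 in NRAS_MEL. The lowest levels were -4.79 in D6_MEL, -5.08 in HRAS_MEL, -5.25 in 3T3 and -5.38 in the array labelled Heart. So 1 array was above the embryo reference and the other 10 were far below it. The difference from the median of those 10 was 6.70, about 104-fold, the third largest of all genes. The Melan A-labelled array lay 5.67 above the next, Liver. Only 1 probe measured it.

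Myl4 showed no such split. Its level was 0.31 in 3T3, 0.19 in VA_475, 0.18 in HRAS_MEL, 0.15 in the array labelled Heart, 0.03 in D6_MEL and -0.05 in NRAS_MEL. It was -0.45 in VA_MEF, -0.52 in both Liver and the Melan A-labelled array, -0.82 in Kidney and -1.95 in Lung. The Melan A-labelled array ranked ninth of 11 and lay -0.51 from the median of the others, less than the spread between probes of a gene. The low value in Lung, -1.98 from the median of the 9 arrays other than itself and Melan A, was the 1 large departure. Its single probe had a range of levels far narrower than that of Actn2; whether the probe reports Myl4 was not tested.

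Atp2a2, measured by 4 probes, stood at 3.21 in the Melan A-labelled array. The next levels were 0.44 in Lung, 0.35 in Kidney and 0.28 in Liver, closer together than the spread between probes. The remaining arrays lay from -0.02 in HRAS_MEL through -0.11 in VA_MEF, -0.21 in VA_475, -0.26 in NRAS_MEL, -0.39 in the array labelled Heart and -0.42 in 3T3 to -0.47 in D6_MEL. On the mean of the 4 probes the other 10 arrays were thus close to the embryo level of this pump. The difference from their median was 3.37, about 10.3-fold, and all 4 probes were highest in the Melan A-labelled array. They disagreed on its size, from 1.18 to 7.11, with an SD of 2.76 between them. With the probe of highest variance alone the difference was 7.11. On that probe the other 10 arrays ran from -1.80 in D6_MEL to 0.86 in Liver.

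Nppb stood at 4.42 in the Melan A-labelled array and at 2.18 in VA_MEF. NRAS_MEL at 0.74, D6_MEL at 0.36, the array labelled Heart at -0.01 and HRAS_MEL at -0.05 followed. Kidney at -0.44, Lung at -0.49, Liver at -0.53, 3T3 at -0.59 and VA_475 at -0.89 made up the rest. For this hormone gene the second array was VA_MEF and no organ label: 2.62 above the median of the 9 arrays other than itself and Melan A, and 2.23 below the Melan A-labelled array. The difference in the latter from the other 10 was 4.66, about 25.3-fold, by 1 probe.

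Of the genes of fatty acid use, Lpl stood at 4.56 in the Melan A-labelled array, 0.93 in Kidney, -0.57 in Liver and -2.55 in Lung. VA_475 had -3.21, NRAS_MEL -4.14, 3T3 -4.22, HRAS_MEL -4.53, D6_MEL -4.88, the array labelled Heart -5.03 and VA_MEF -5.17. Thus the arrays labelled Melan A, Kidney, Liver and Lung were above the other 7, in steps of 0.66 to 3.64. The smallest step, from Lung to VA_475, is less than the spread between probes. The difference of 8.74 from the median of the other 10, about 429-fold on a base of 2, was the largest of all 7062 genes. It was measured by 1 probe.

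Fabp3 stood at 3.13 in the Melan A-labelled array, -0.12 in Kidney and -0.84 in Liver. The other 8 arrays lay between -1.95 in HRAS_MEL and -1.62 in NRAS_MEL, with Lung at -1.69, 3T3 at -1.70, VA_MEF at -1.75, VA_475 at -1.79, the array labelled Heart at -1.90 and D6_MEL at -1.91. The narrow range of these 8 is that of the mean of both probes: on the first they ran from -4.10 in HRAS_MEL to -2.60 in Lung. The difference of 4.86 averages 2 probes that disagreed, at 8.81 and 0.95. On the first probe the Melan A-labelled array stood at 5.50 and Kidney at 0.25. The second probe ran only from -0.78 in Lung to 0.76 in the Melan A-labelled array, which was highest on both. Which probe measures Fabp3 better was not tested; with the one of higher variance alone the difference was 8.81.

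**Figure D2:**
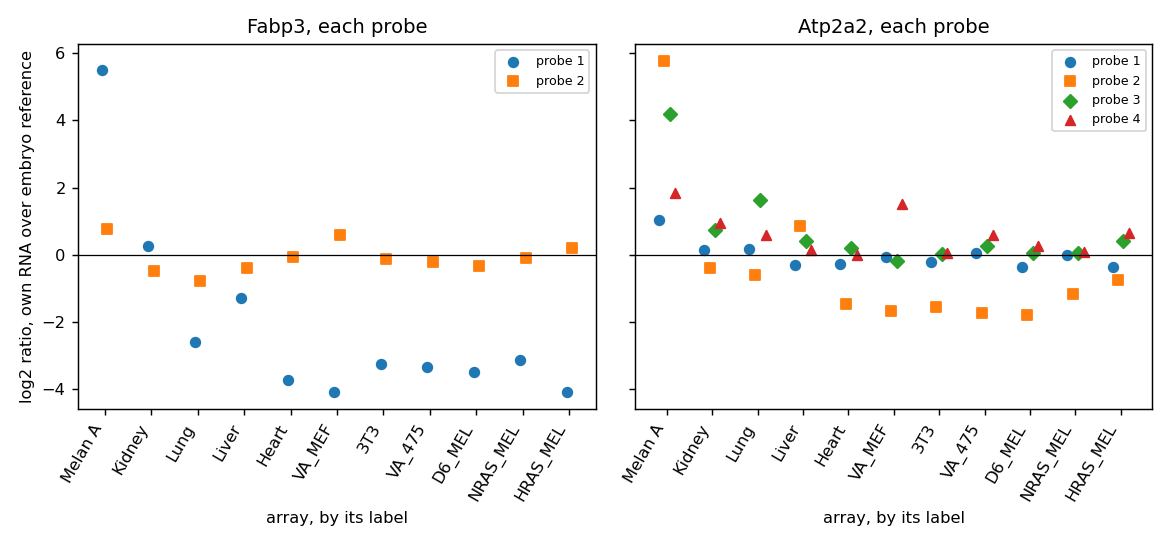
Log2 ratio of own RNA over embryo reference (vertical axis) for each probe of Fabp3 (left, 2 probes) and Atp2a2 (right, 4 probes) in the 11 arrays (horizontal axis), 1 point per probe and array. All 6 probes are highest in the Melan A-labelled array, while the second Fabp3 probe stays between -0.78 and 0.76.

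Coq8a, measured by 1 probe, stood at 2.67 in the Melan A-labelled array and at 2.45 in Lung. The gap of 0.22 is smaller than the spread between probes, which was not computed for gaps between single arrays. Kidney had 0.63 and Liver -1.96. Then came HRAS_MEL at -2.98, VA_MEF at -3.32, the array labelled Heart at -3.36, NRAS_MEL at -3.57, D6_MEL at -3.92, 3T3 at -4.08 and VA_475 at -4.10. As for Lpl, the arrays labelled Melan A, Lung, Kidney and Liver were above the other 7. The difference of the Melan A-labelled array from the median of the other 10 was 6.01, about 64.7-fold. It was 4.58, about 24.0-fold, with quantile normalization and 5.09, about 34.1-fold, against the mean of the other 10. The difference of Lung from the 9 arrays other than itself and Melan A was 5.81.

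Against the array labelled Heart, the same 6 genes were at least 2-fold higher in the Melan A-labelled array, where 14.7% of 7070 genes were higher and 12.8% lower by that much. The differences were 9.59 for Lpl, 7.46 for Actn2, 6.03 for Coq8a, 5.04 for Fabp3, 4.43 for Nppb and 3.60 for Atp2a2, and -0.67 for Myl4. This comparison shares the Melan A-labelled array with the one above. In each of the 7 genes the array labelled Heart lay within the range of the 6 arrays 3T3, VA_475, VA_MEF, D6_MEL, NRAS_MEL and HRAS_MEL, except Actn2, where it was 0.13 below the lowest.

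The array labelled Kidney was set against the median of the 9 arrays other than itself and Melan A, since Kidney was second highest for Fabp3 and Lpl, so the differences of these genes restate that choice. At least 2-fold higher there were 3 of the 7 genes, Lpl at 5.14, Coq8a at 3.99 and Fabp3 at 1.63, and 0 were lower, beside 12.1% higher and 7.35% lower over 7059 genes. Actn2 at 0.68, Atp2a2 at 0.56, Nppb at -0.39 and Myl4 at -0.85 stayed within 2-fold. The Kidney and Melan A comparisons share 10 arrays, since Kidney is itself among the other 10 of the latter.

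**Figure D3:**
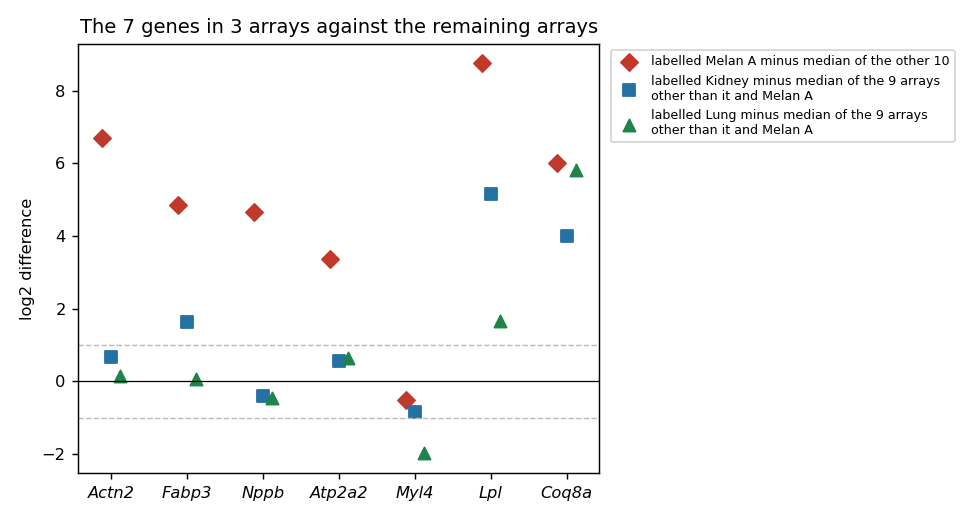
Log2 difference (vertical axis) of the 7 genes (horizontal axis) in the arrays labelled Melan A, Kidney and Lung, each against the median of the arrays named in the legend; dashed lines mark 2-fold. Coq8a is high in all 3, at 6.01, 3.99 and 5.81, and Actn2 in 1, at 6.70 against 0.68 and 0.16.

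Over the 10 arrays without Melan A, the 7 profiles correlated less in most pairs. Pearson r across those 10 arrays was 0.932 between Fabp3 and Lpl, 0.880 between Atp2a2 and Coq8a and 0.820 between Actn2 and Lpl. Nppb correlated with Actn2 at -0.138 and with Lpl at -0.506, and Myl4 with Coq8a at -0.935. With all 11 arrays, Actn2 and Fabp3 reached 0.970 and Actn2 and Nppb 0.795, so the positive values of Nppb depend on 1 array. The points share the reference RNA and 1 array per label, and the values are descriptions.

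The genes whose profile over 11 arrays was most like the mean of the 7, among 7035 genes with every value, were Arid4a at r = 0.982, Ndufv2 at 0.973, Ndufb10 at 0.969, Cox4i1 at 0.969 and Ogdh at 0.969. Cyc1 at 0.969, Ndufb5 at 0.968, Oip5os1 at 0.968, Ndufa13 at 0.964 and Mrpl4 at 0.964 followed. Ndufv2, Ndufb10, Ndufb5 and Ndufa13 encode subunits of respiratory complex I, Cyc1 is part of complex III and Cox4i1 of complex IV. Without the Melan A-labelled array the list was Tgfa at 0.973, Clptm1 at 0.966, Map7 at 0.963, Prkcz at 0.962 and Lrba at 0.957. None of these 5 was among the first 10.

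The partners of each gene were read from lists of related genes, with the 7 left out; the count in each list is of genes at least 2-fold higher in the Melan A-labelled array than the median of the other 10, beside 12.7% of all genes. Of the sarcomere and Z disc list, 8 of 9 measured genes were higher and 0 lower, with a median of 2.77. The sign was turned partly on this list, so the direction of its count restates that choice. In the deposited sign 0 of its genes were higher. Fhl2, a LIM protein of the sarcomere, was 6.36 higher, the myosin methyltransferase Smyd1 4.60, the actin-binding Z disc protein nexilin (Nexn) 4.07 and the Z disc adaptor Pdlim5 3.54. Vinculin (Vcl), also found at adhesions of many cells, was within 2-fold, at -0.02. Tropomyosins Tpm1 and Tpm2 were 2.36 and 2.24 higher, though Tpm2 in that array still lay below 0. Tpm2 was highest in 3T3, at -2.11 against -2.44 in the Melan A-labelled array.

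In the calcium list 4 of 12 genes were higher and 0 lower, with a median of 0.26. The members past 2-fold were Hrc, a calcium-binding protein of the sarcoplasmic reticulum, at 4.76, the sodium-calcium exchanger Slc8a1 at 2.37, the kinase Camk2d at 1.60 and Asph at 1.14. Hrc stood at 3.26 in the Melan A-labelled array and between -1.93 and -0.91 in the other 10. Calmodulin 2 (Calm2), sorcin (Sri) and calreticulin (Calr), which most cells use, lay at -0.50, -0.55 and -0.24.

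The list written for the natriuretic peptide system gave 1 of 6 genes higher and 0 lower, with a median of 0.47. That gene was Gucy1a1, at 2.33, yet it was highest in the array labelled Liver. It encodes a subunit of the soluble guanylate cyclase, which is not a receptor of these peptides. The neutral endopeptidase Mme, which degrades natriuretic peptides, lay at 0.78, the phosphodiesterase Pde5a at -0.51 and the kinase Prkg1 at 0.48. The receptors Npr3 and Npr2, for which values were 0.46 and -0.30, were within 2-fold.

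Mitochondrial fatty acid oxidation genes were at least 2-fold higher in 20 of 21 cases, and 0 were lower, with a median of 3.28. The medium-chain acyl-CoA dehydrogenase Acadm was 5.31 higher, the thiolase Acaa2 4.93, Ech1 4.72 and Hadhb, the beta subunit of the trifunctional protein, 4.19. The thioesterase Acot2 was the 1 gene within 2-fold, at 0.72. At least 2-fold above every other array stood 8 of the 21, beside 3.34% of all genes. Acadm stood at 3.62 in the Melan A-labelled array and 3.13 in Kidney, and Acaa2 at 2.24 there and 2.06 in Lung. The list median was 2.50 in the Melan A-labelled array, 1.56 in Lung, 1.03 in Kidney and -0.61 in Liver, and between -1.25 and -0.75 in the other 7 arrays. In the Kidney comparison 18 of 21 were at least 2-fold higher, beside 12.1% of all genes, with a median of 1.86. Oxct1, the enzyme with which tissues other than liver use ketone bodies, stood at 3.06 in Kidney and -2.78 in Lung, the array that carries liver markers, and 2.91 above the median of the others in the Melan A-labelled array.

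**Figure D4:**
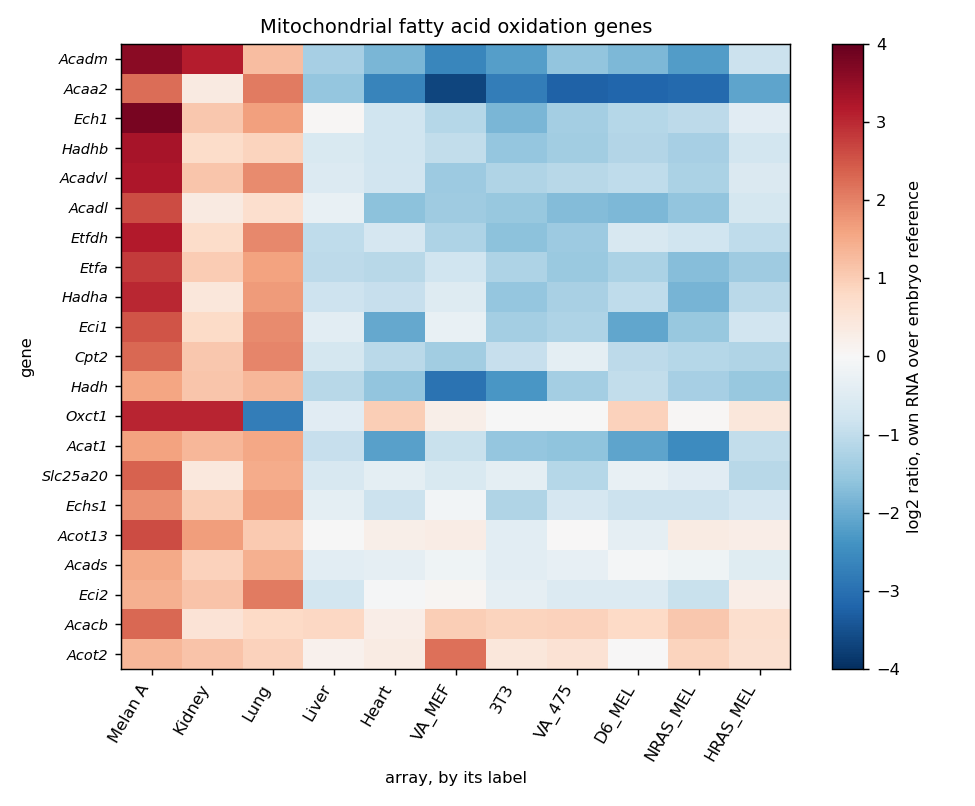
Log2 ratio of own RNA over embryo reference (colour) for 21 fatty acid oxidation genes (rows, ordered by the difference in the Melan A-labelled array) in 11 arrays (columns). Most genes are above 0 in the arrays labelled Melan A, Kidney and Lung and below 0 elsewhere; Oxct1 is at -2.78 in Lung.

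The list of fatty acid uptake and lipoprotein triglyceride gave 4 of 13 genes higher and 2 lower, with a median of -0.09. Got2, the mitochondrial aspartate aminotransferase also described as a fatty acid binding protein of the plasma membrane, was 3.92 higher and the lipoprotein receptor Vldlr 3.31. Gpihbp1, which holds lipoprotein lipase at the capillary wall, was 3.25 higher, and the triglyceride lipase Pnpla2 1.07. However, Gpihbp1 reached 1.99 in Liver, above its level of 1.42 in the Melan A-labelled array. The acyl-CoA synthetases Acsl5 and Acsl4 were lower, by -1.26 and -1.18, and Acsl3 lay at -0.92. Lmf1, needed for the maturation of lipoprotein lipase, lay at 0.76. Of the coenzyme Q genes 3 of 7 were higher and 1 lower, with a median of 0.34: Coq9 at 3.97, Coq10a at 3.48, Coq5 at 1.74 and the methyltransferase Coq3 at -1.83. Coq5 was as high in Kidney, at 0.35 against 0.31 in the Melan A-labelled array.

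Citrate cycle and pyruvate oxidation genes were higher in 22 of 23 cases with 0 lower and a median of 3.21, and 16 stood at least 2-fold above every other array, beside 3.34% of all genes. Pdhb, a subunit of pyruvate dehydrogenase, was 4.33 higher, Got1 4.01, Idh2 3.99 and Mdh2 3.93, while Sdhb lay at 0.62. In the phosphocreatine and nucleotide exchange list 6 of 11 were higher and 0 lower, with a median of 1.11. The outer membrane channels Vdac1 and Vdac2 were 3.18 and 1.71 higher, the adenylate kinase Ak4 2.99 and brain-type creatine kinase Ckb 1.41. Ak4 and Ckb were highest in Kidney, at 2.81 and 0.37, against 2.01 and -0.47 in the Melan A-labelled array. The Kidney comparison gave 17 of 23 and 8 of 11 of these lists higher, beside 12.1% of all genes.

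Of the transcription regulators 6 of 12 were higher and 0 lower, with a median of 1.12. Gata4 and Tbx20, factors of heart development, were 4.21 and 4.03 higher, the coactivator Ppargc1b 2.46 and Mef2a 2.21, with Gata6 at 2.20 and Mef2d at 1.37. Gata4 stood at 3.33 in the Melan A-labelled array and at 1.05 or below in every other. Tbx20 stood at 3.79, against 0.39 or below. Gata6 showed no such gap: its level of 1.47 in Liver was slightly above the 1.37 of the Melan A-labelled array. In the Kidney comparison 1 of the 12 was higher, Ppargc1b at 1.10, beside 12.1% of all genes.

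**Figure D5:**
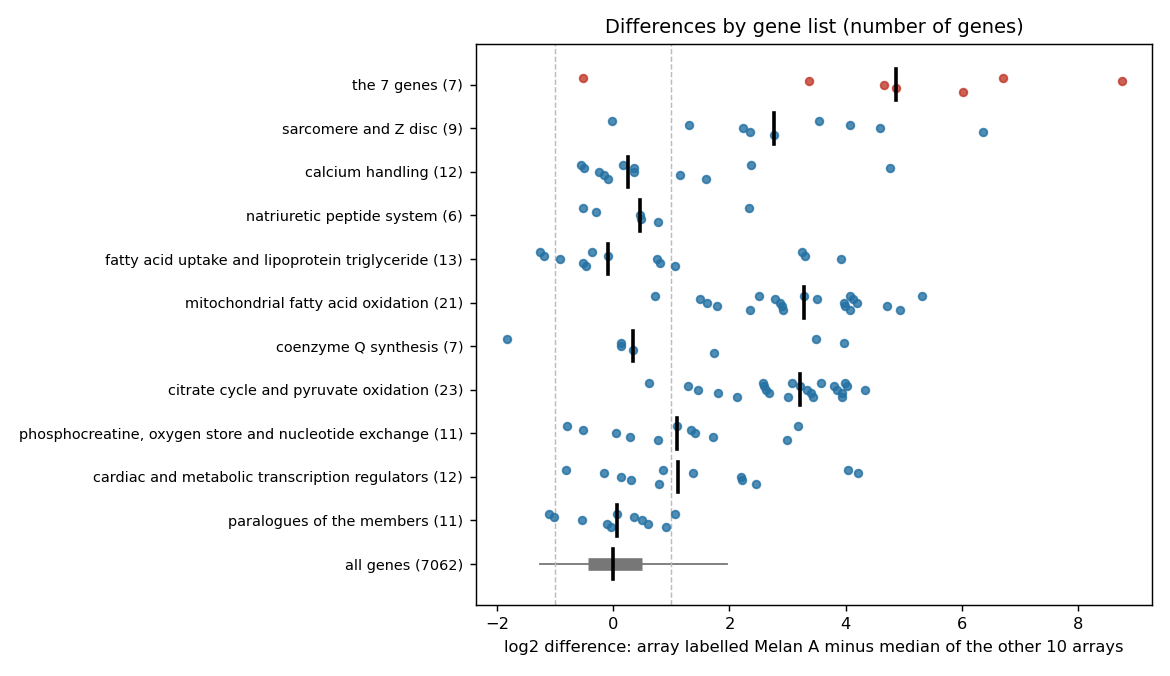
Log2 difference of the Melan A-labelled array from the median of the other 10 (horizontal axis) for each gene of the lists (rows, with the number of genes); black bars are medians, dashed lines mark 2-fold, and the grey bar spans the 25th to 75th percentile of all genes with a line from the 5th to the 95th. The oxidation and citrate cycle lists have medians of 3.28 and 3.21, the paralogue list 0.07.

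Paralogues were measured for Actn2, Myl4, Atp2a2 and Coq8a, and for Fabp3, Lpl and Nppb none. Of these 11 relatives, 8 were within 2-fold, 1 was higher and 2 were lower, beside 12.7% higher and 8.17% lower over all genes. Their median was 0.07, and 0 were highest in the Melan A-labelled array. Beside Actn2 at 6.70, the non-muscle alpha-actinins Actn1 and Actn4 lay at -1.11 and -0.10 and Actn3, of fast skeletal muscle, at -0.54. Among myosin light chains, the smooth muscle form Myl9 lay at 1.06, Myl12a at 0.91, Myl12b at 0.49, the fast skeletal Mylpf at -0.03 and the non-muscle Myl6 at -1.01. The plasma membrane calcium pump Atp2b1 lay at 0.36, and Adck1 and Adck2, relatives of Coq8a, at 0.60 and 0.07. The count for this list ran from 0 to 2 under other processing.

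Markers of several other cell types were also above the median of the other 10 arrays in the Melan A-labelled array. Their part in the results was not tested. In bulk RNA, more cells of a type and more RNA per cell cannot be told apart. The counts below stand beside 12.7% of all genes higher and 8.17% lower. Relative to the other 10 arrays, the Melan A-labelled array was at least 2-fold higher in 2 of 3 red blood cell genes (Hbb-b1 at 8.07, Alas2 at 3.77), 5 of 6 macrophage genes (C1qa at 3.76, Lyz2 at 3.17), and 3 of 4 endothelial genes (Pecam1 at 3.16, Emcn at 2.64). It was also higher in 2 of 3 smooth muscle genes (Cnn1 at 2.62, Smtn at 2.43) and 5 of 7 fibroblast genes (Dcn at 4.11, Col3a1 at 1.93), with Fn1 lower by -2.22. The red blood cell, macrophage and endothelial medians in that array, at -1.01, 0.39 and 0.75, were below those in Liver. Its smooth muscle median was 0.78, against -2.26 to -0.18 in the other arrays, and its fibroblast median -1.27, against -3.04 to -0.36.

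Skeletal muscle genes gave 0 of 2 higher: Mylpf was at -0.03 and Actn3 at -0.54, and their median level was -4.89 in the Melan A-labelled array and from -5.27 to -3.40 in the others. The adipocyte list had 0 of 14 genes among those analysed here, so their part in the level of Lpl was not tested. The melanocyte list gave 1 of 5 higher (Ednrb at 1.72, Kit at 0.00) and 2 lower, Mlph at -1.52 and Rab38 at -1.33. Over all genes 12.7% were higher and 8.17% lower. Of the kidney, liver and lung lists 0 of 3, 0 of 3 and 0 of 1 were higher, with Alb at 0.88, Apoa1 at 0.42, Lrp2 at 0.07, Miox at -0.37 and Sftpd at -0.36. Miox and Lrp2 were 5.74 and 6.72 higher in the Kidney comparison, in which Lpl, Coq8a and Fabp3 were higher too. The sign was turned partly on the kidney markers, so the direction of Miox and Lrp2 restates that choice.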

How the data were processed

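The authors deposited 1 table of log ratios, taken as log2, of the 2 channels of each array, 15247 probes by 11 arrays with 15170 to 15210 values each. The logarithm was read as base 2, with its base, background correction and normalization not given in the sources used here. Column medians lay from -0.03 to 0.03. Intensities were not analysed here, so signal over background is unknown.

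The sign was turned, each array centred on its median, and probes averaged per gene. The platform annotation gave 9600 probes 1 symbol, 214 several and 5433 none; 9492 were found by gene number in RefSeq (GRCm38.p6), with 0 symbols changed. Differences needed at least 8 of the 10 other arrays; 2-fold is a log2 difference of 1. No test was run, as each label has 1 array. The steps were tested on simulated data. Python 3.11.15, numpy 2.4.6, pandas 2.3.3 and matplotlib 3.10.9 were used.

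The members and lists were chosen with earlier results of these data known. The named genes are the 7, all their measured paralogues, the 4 largest absolute differences per list, the 2 highest per marker list, and the 10 and 5 most alike genes; others named were chosen after their values were seen. Alternatives covered centring, quantile normalization, probe summary, sign, base, the comparison arrays and missing values.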

Additional observations from a re-analysis of the deposited data

How the results depend on the processing

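Over 11 alternatives, 184 of 231 recomputed values kept their sign and stayed within the spread between probes (counts: within 1.5 times), and 47 did not; the cause was not tested. With the sign as deposited, every direction turned: Actn2 -6.70, Fabp3 -4.86, Nppb -4.66, Atp2a2 -3.37, Lpl -8.74, Coq8a -6.01 and the median of the 7 -4.86, with 0 of the 7 genes and 577 of all genes higher, and 894 lower. The lists then gave 0 higher, except fatty acid uptake with 2, coenzyme Q with 1 and paralogues with 2. The median of the 7 was 4.16 with quantile normalization and 6.70 with 1 probe per gene. Natural logarithms gave a median of 7.01, 1352 genes higher and 1128 lower, and 2 in the natriuretic list. Paralogues numbered 2 with natural logarithms or 1 probe per gene, and 0 with quantile normalization, with the mean of the other arrays, or without the arrays labelled Heart, Liver, Lung and VA_MEF, a choice made after seeing the data. Apart from the sign as deposited, each alternative left 6 of the 7 at least 2-fold higher. No paired analysis was possible because each label has 1 array.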

Other observations

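Among genes in none of the lists, a choice made after seeing the data, the 10 largest differences upward in the Melan A-labelled array from the median of the other 10 were those of the genes named here. Slc2a4, the insulin-responsive glucose transporter of muscle and fat, was 5.36 higher, the muscle phosphofructokinase Pfkm 5.18 and the heart-type lactate dehydrogenase subunit Ldhb 5.78. Ldhb stood at 4.71 there and at 3.89 in Kidney. Pfkm stood at 3.44 there and at -1.31 or below in the other 10 arrays. Fndc5, the precursor of irisin, was 5.32 higher, and was the gene most like Actn2 over 11 arrays, at r = 0.980. The secreted glutathione peroxidase Gpx3 at 5.87, Ndrg2 at 5.49, BC053393 at 5.23, Tesc at 5.09, the Y-linked translation factor Eif2s3y at 4.99 and clusterin (Clu) at 4.94 completed the 10. Gpx3 was highest in Kidney, at 4.07, and lay at -0.47 in the Melan A-labelled array. Ndrg2 and Clu stood at 3.89 and 4.24 in Lung, against 3.80 and 2.94 in the Melan A-labelled array.

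The closest genes differed between the 7. Over 11 arrays Slc2a4 was most like Fabp3 (r = 0.984), Acaa2 most like Coq8a (0.984), Macf1 most like Lpl (0.976), Actn2 most like Atp2a2 (0.977) and Tigar most like Nppb (0.952). Nap1l1 was most like Myl4 (0.948), and its difference in the Melan A-labelled array was -0.65. These values describe the 11 arrays and share 1 reference RNA.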
